A study of Drosophila melanogaster with 6 samples.

Results

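The libraries described here are the 2 IgG libraries of an RNA immunoprecipitation series from the ovary of Drosophila melanogaster, out of 6 libraries in all. They were chosen by antibody alone, and no measured value entered the choice. IgG is an antibody with no intended target, so the RNA it carries through the procedure is the background against which RNA recovered by a specific antibody is read. All groups were wild-type Oregon-R ovaries. The females were at most 12 hours after eclosion. The labels give about 200 of them per experiment, whose ovarian lysate was divided into 3 parts for IgG, anti-Lsd1 and anti-Bre1. The labels set limits: animals were pooled in each experiment, and each experiment has 1 IgG library. Libraries were made from total RNA with no step to select polyadenylated RNA. The kit keeps no strand, and a read in a stretch covered by opposite genes could come from either.

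An ovary of this age holds mostly early egg chambers. In each of them, germline nurse cells make RNA and pass it to a single oocyte, and a layer of somatic follicle cells later secretes the vitelline membrane and the chorion of the eggshell. The oocyte takes up yolk protein and stores maternal messages that are used after egg activation and in the early embryo. A muscle sheath encloses the ovarioles.

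Experiment 1 is given as FPKM (fragments per kilobase of transcript, scaled to the size of the library), summed here over the transcripts of a gene, and experiment 2 as RPKM (reads per kilobase of exon, scaled likewise) with counts of exon, intron and junction reads. Both scales are per length, so levels of different genes can be set side by side within a library. The experiment and the way it was quantified cannot be told apart, so a ratio of the 2 values of a gene is a description of both at once. A percentile is a gene's rank among the 13785 protein-coding nuclear genes (mRNA genes) found in both tables, with 100 the highest. Outside ribosomal RNA, experiment 1 rested on about 1482001 fragments, recovered or modelled from the deposited values, and experiment 2 on 8739562 exon reads. A level of 1 stood for a median of 34.0 fragments in experiment 1 and 90.5 reads in experiment 2. In bulk RNA, fewer cells of a type and less RNA per cell cannot be told apart.

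A level of at least 1 was found in both libraries for 5804 mRNA genes, which is 42.1% of those measured. These were 94.4% of the 6149 genes at that level in experiment 1 and 90.7% of the 6400 in experiment 2. In experiment 2, 3645 mRNA genes had no exon read at all. Over the 5804 genes the ranks of the libraries correlated at a Spearman rho of 0.67, with a Pearson r of 0.74 on log2(value + 1). This is a description across genes, which share both libraries and the trend with length given further on. Of the 500 highest mRNA genes of each library, 292 were shared, which is 58.4% of either list. The highest 100 genes held 53.1% of the summed mRNA FPKM in experiment 1 and 19.5% of the summed RPKM in experiment 2, so the top of the profile was steeper in experiment 1.

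**Figure D1:**
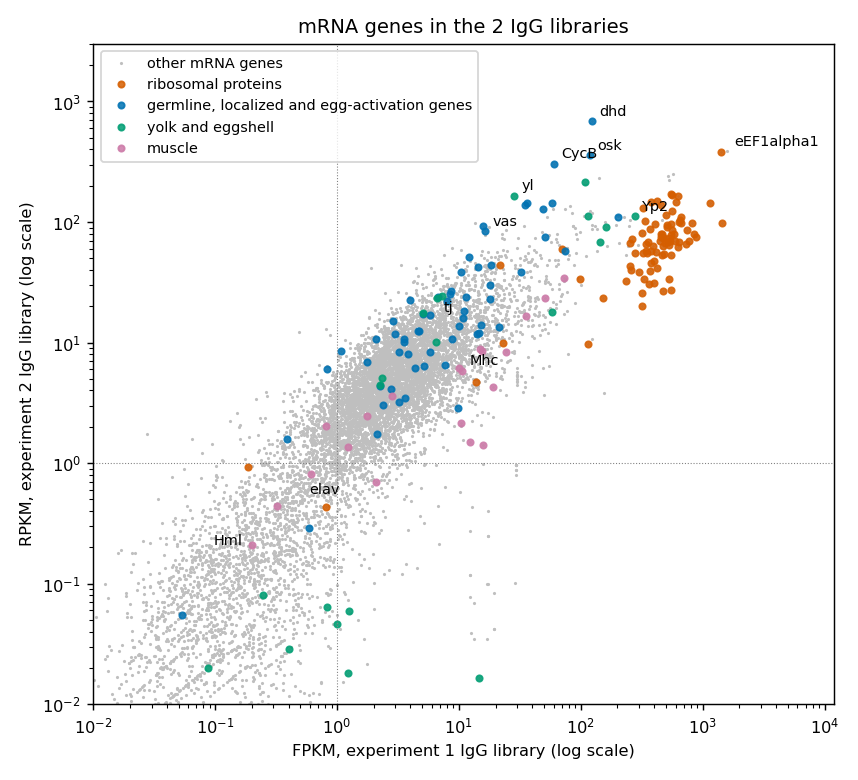
Each point is an mRNA gene with a value above 0 in both IgG libraries, with FPKM of experiment 1 on the x axis and RPKM of experiment 2 on the y axis, both on log scales; dotted lines mark a level of 1. Most ribosomal protein genes lie far to the right, dhd is the highest point of experiment 2 (685.1 RPKM), and Hml and elav lie below 1 in both libraries.

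Ribosomal RNA was the largest class of experiment 2 and mRNA the largest outside it in both. Ribosomal RNA took 57.6% of the exon reads of experiment 2 (95% Clopper-Pearson interval 57.6 to 57.6, for counting error only), and 99.96% of these reads fell on one precursor gene, pre-rRNA:CR45856. No such share can be given for experiment 1, where the nuclear ribosomal RNA genes matched here are listed at 0. Outside ribosomal RNA, mRNA genes took 96.6% of the fragments of experiment 1 and 98.9% of the exon reads of experiment 2. Transfer RNA (290 genes) and microRNA precursors (237 genes) were at 0 in both. In experiment 1 none of 941 genes with transcripts under 150 bases was above 0, so a 0 there does not show that such a short RNA was absent.

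Among noncoding RNAs, the signal recognition particle RNA, which guides ribosomes to the endoplasmic reticulum, had the highest FPKM. Its gene copies 7SLRNA:CR42652 and 7SLRNA:CR32864 had 8919 and 8909 FPKM in experiment 1, and 116.9 and 121.2 RPKM in experiment 2. Neither copy had a unique read in experiment 2, so the split between them is uncertain. Both lay far above the 90th percentile of mRNA genes, which was 7.5 FPKM and 11.1 RPKM.

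Nuclear RNAs of the transcription and splicing machinery were also high in both libraries. The 7SK RNA, which holds the elongation factor P-TEFb in check, had 681.6 FPKM and 314.9 RPKM, and its 6774 exon reads were all unique. The spliceosomal RNA snRNA:U2:34ABa had 3432 FPKM and 176.5 RPKM, and snRNA:U11 of the minor spliceosome had 417.8 FPKM and 27.7 RPKM. RNaseMRP:RNA, which takes part in ribosomal RNA processing, had 485.2 FPKM and 155.5 RPKM. These RNAs are short, and the FPKM of a short RNA can rest on few fragments: the 3432 FPKM of snRNA:U2:34ABa stood for 307 fragments.

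Small nucleolar RNAs, guides for modifying ribosomal RNA, showed the same limit more sharply. Of 272 of them, 130 had exon reads in experiment 2 and 9 were above 0 in experiment 1, with 8 at a level of at least 1 in both. snoRNA:U3:54Aa had 4271 FPKM from 125 fragments in experiment 1 and 55.2 RPKM from 463 reads in experiment 2, with no unique read. The reach of the libraries differed here by transcript length: of 941 genes with transcripts under 150 bases, none was above 0 in experiment 1 and 124 had reads in experiment 2. The guide scaRNA:MeU5-C46, which acts in Cajal bodies, was the highest of its class, with 338.8 FPKM and 369.9 RPKM, and again no read was unique.

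Of 2350 long and other noncoding genes, 36 were at a level of at least 1 in both libraries. CR42862 had 96.7 FPKM and 62.4 RPKM, from 7268 fragments and 16580 exon reads, so this level was well measured in both. CR40469 had 375.6 FPKM and 67.5 RPKM, from 76 fragments and 700 reads. Uhg4, a host gene whose introns carry small nucleolar RNAs, had 29.8 FPKM and 16.2 RPKM. Hairpin RNAs, which give rise to endogenous siRNAs, were at that level for 4 of 5 genes in both libraries. hpRNA:CR33940 was at 26.5 FPKM and 11.1 RPKM, and hpRNA:CR18854 at 8.44 FPKM and 7.01 RPKM.

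Mitochondrial RNA took different places in the libraries. mt:lrRNA and mt:srRNA, the mitochondrial ribosomal RNAs, had 1911 and 1002 FPKM in experiment 1, but 72.3 and 15.3 RPKM in experiment 2. Among mitochondrial messages mt:CoI, a catalytic subunit of cytochrome oxidase, was highest in experiment 1 at 372.7 FPKM, with 45.3 RPKM in experiment 2. There, mt:ND1 of complex I led with 179.6 RPKM, against 76.1 FPKM in experiment 1. mt:ND2, mt:ND3 and mt:ND6 had 0.960, 4.55 and 0.474 FPKM and 0.362, 0.816 and 1.02 RPKM. mt:ATPase8, a very short gene, was listed at 0 in experiment 1 and had 1 read in experiment 2. The highest mitochondrial message thus differed between the experiments, and mt:ATPase8 and mt:ND2 were under 1 in both.

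Translation led the messages common to both libraries. Of the 20 mRNA genes with the highest lower percentile of the libraries, 15 belong to the ribosomal protein list. eEF1alpha1, which delivers aminoacyl-tRNA to the ribosome, was at rank 1 in experiment 1 with 1587 FPKM and at rank 2 in experiment 2 with 388.1 RPKM. RpL41, a very short protein of the large subunit, was at rank 3 in both with 1419 FPKM and 377.4 RPKM. The others in this group outside the list were eEF2, the translocation factor (576.2 FPKM and 252.3 RPKM), the chaperones Hsp83 (531.3 FPKM and 221.6 RPKM) and Hsc70-4 (519.5 FPKM and 239.4 RPKM), and awd, a nucleoside diphosphate kinase (466.9 FPKM and 104.5 RPKM).

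Ribosomal protein genes had a median of 450.7 FPKM and 67.3 RPKM, against 0.562 FPKM and 0.507 RPKM over all mRNA genes. Of 92 genes with such a name, 82 were in the top 10% of both libraries, where 6.16% of all mRNA genes were. RpL10 had 1146 FPKM and 143.4 RPKM, and RpL23A had 599.5 FPKM and 145.5 RPKM. Another 7 of the 92 were under 1 in both, as were 51.1% of all mRNA genes, among them RpS28a and RpS28-like, both listed at 0. The list was matched by name and so takes in paralogs of the usual ribosomal proteins.

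The same held in part for other housekeeping groups. Of 52 translation factors, 34 were in the top 10% of both libraries and 11 were under 1 in both. eEF1gamma had 251.2 FPKM and 103.5 RPKM, and eEF5, which helps ribosomes through stretches of proline, had 225.1 FPKM and 110.6 RPKM, while the paralog eIF4E4 was listed at 0 in both. All 19 measured members of a list of common reference genes were at a level of at least 1 in both, from Tbp, the TATA-binding protein, at 1.86 FPKM and 6.12 RPKM up to eEF1alpha1. Another member of that list, sesB, had no usable estimate in experiment 1. Proteasome subunits (31 of 47 at a level of at least 1 in both) stood at medians of 10.01 FPKM and 10.9 RPKM. Another 15 of the 47 were under 1 in both. All 15 carry the name of another subunit with a T or R added, such as Prosalpha3T and Rpt3R. The medians take them in. Prosalpha1 had 20.02 FPKM but no read in experiment 2. Prosbeta2, a catalytic-ring subunit, had 20.9 FPKM and 14.6 RPKM, and Rpn11, the deubiquitinase of the lid, had 15.98 FPKM and 17.99 RPKM. All 73 mitochondrial ribosomal proteins were at a level of at least 1 in both, at lower medians of 7.93 FPKM and 5.23 RPKM.

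Genes for RNA binding and splicing were uniformly present, with 24 of 24 at a level of at least 1 in both and 19 in the top 10% of both. pAbp, the poly(A)-binding protein, had 201.0 FPKM and 111.1 RPKM. Hrb27C and sqd, hnRNP proteins that act on gurken and oskar RNA in the oocyte, had 73.6 and 50.5 FPKM and 57.0 and 75.1 RPKM. The lowest in experiment 1 was the splicing factor U2af38, with 3.77 FPKM and 7.23 RPKM. The lowest in experiment 2 was heph, a polypyrimidine tract-binding protein, with 5.15 FPKM and 5.09 RPKM.

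Messages stored or placed within the oocyte were among the most abundant of experiment 2. All 25 genes of the localized-message list were at a level of at least 1 in both libraries, and 15 were in the top 10% of both. osk, which organises the germ plasm at the posterior pole, had 119.1 FPKM (4528 fragments) and 358.6 RPKM (51560 reads), at rank 110 in experiment 1 and rank 4 in experiment 2. nos, the translational repressor whose localized message patterns the abdomen, had 8.58 FPKM and 26.7 RPKM. bcd, the anterior determinant, had 2.09 FPKM and 10.8 RPKM. The dorsal-ventral signal grk was near the low end of the list, at 2.38 FPKM and 3.04 RPKM.

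The list for egg activation and the maternal cell cycle had medians of 6.70 FPKM and 23.7 RPKM, with 16 of 17 genes at a level of at least 1 in both. dhd, a maternal thioredoxin needed at fertilization to remodel sperm chromatin, was the highest mRNA gene of experiment 2 at 685.1 RPKM from 31694 reads. In experiment 1 it had 124.6 FPKM. CycB, a mitotic cyclin, had 60.8 FPKM and 305.0 RPKM. gnu, a subunit of the PAN GU kinase, had 36.0 FPKM and 144.6 RPKM, and its partner plu had 1.08 FPKM and 8.48 RPKM. Each of these genes stood at a higher percentile in experiment 2 than in experiment 1.

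Germline identity genes were detected for 22 of 26 members in both libraries, 12 of them in the top 10% of both. The list is not limited to genes specific to the germline. It holds, for example, the dynein gene Dhc64C (3.81 FPKM and 8.09 RPKM). The RNA helicase me31B and its partner tral, which hold maternal messages in repressed particles, led with 58.1 and 49.3 FPKM and with 145.1 and 127.2 RPKM. bru1, a translational repressor of oskar, had 32.3 FPKM and 38.4 RPKM. vas, the germline helicase used as a defining marker, had 16.5 FPKM and 84.1 RPKM. bam, which drives the cystoblast divisions of the germarium, differed in place between the libraries at 0.834 FPKM (20 fragments) and 6.03 RPKM (553 reads). Its partner bgcn was at 0.0531 FPKM and 0.0546 RPKM, and fne, a member of the Elav family, was listed at 0 FPKM and at 0.00651 RPKM.

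The piRNA pathway, which silences transposons in the germline, was broadly present at moderate levels: 29 of 32 genes were at a level of at least 1 in both, with medians of 3.20 FPKM and 6.04 RPKM, and 4 were in the top 10% of both. piwi, the nuclear Argonaute, had 14.2 FPKM and 24.9 RPKM. del, a part of the complex that licenses transcription of piRNA clusters, had 9.13 FPKM and 28.6 RPKM, while cuff, of the same complex, had 0.391 FPKM and 0.622 RPKM. The helicase armi had 9.81 FPKM and 17.9 RPKM. fs(1)Yb, which works in the somatic cells, was close to the detection level at 1.06 FPKM and 0.890 RPKM.

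Meiosis genes were lower, with 9 of 24 at a level of at least 1 in both, close to the 42.1% of all mRNA genes. The exception in level was mtrm, an inhibitor of Polo kinase in the oocyte, at 17.7 FPKM and 90.9 RPKM. c(3)G, the transverse filament of the synaptonemal complex, had 2.32 FPKM and 8.28 RPKM. The cohesion gene ord was listed at 0 FPKM and at 0.0422 RPKM from 8 reads. By contrast, all 24 genes of DNA replication and the endocycle were at a level of at least 1 in both. PCNA, the sliding clamp, was highest in experiment 1 with 21.0 FPKM and had 20.7 RPKM. RnrS, the small subunit of ribonucleotide reductase, was highest in experiment 2 with 56.4 RPKM and had 17.4 FPKM.

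**Figure D2:**
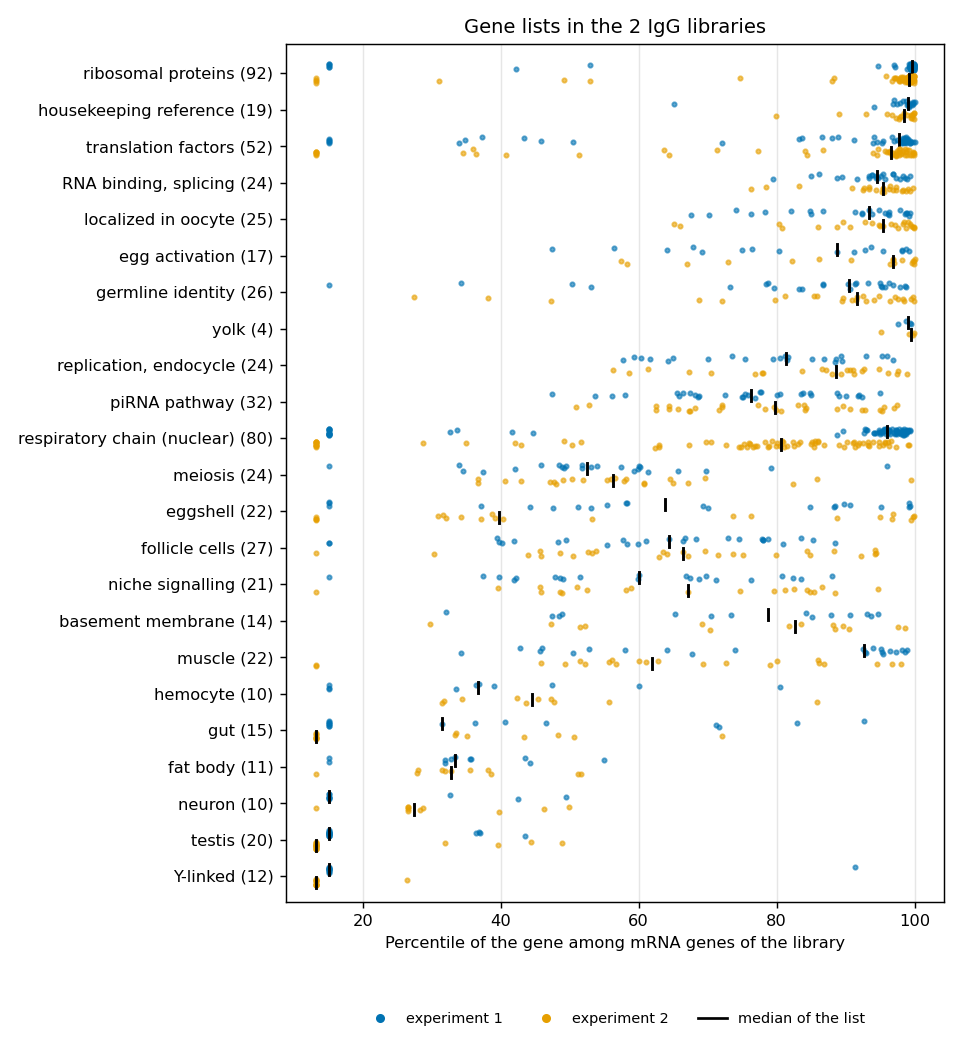
Each point is a gene, placed by its percentile among mRNA genes of the library (x axis) in the row of its list, with the number of measured genes in brackets; blue points are experiment 1, orange points experiment 2, and bars mark list medians. Ribosomal protein genes cluster at the right edge in both, respiratory chain and muscle genes lie further right in experiment 1, and the points at 15.2 and 13.2 are genes listed at 0.

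Yolk, vitelline membrane and chorion genes stood at different levels. All 4 yolk genes were in the top 10% of both libraries. The yolk proteins Yp2, Yp1 and Yp3 had 278.8, 142.5 and 57.5 FPKM and 112.0, 67.9 and 17.9 RPKM. yl, the yolk receptor of the oocyte, had 28.4 FPKM and 165.8 RPKM. It was thus below all 3 yolk proteins in experiment 1 and above them in experiment 2.

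Of 22 eggshell genes, 9 were at a level of at least 1 in both, a share close to the 42.1% of all mRNA genes. Some vitelline membrane proteins were high: Vm26Ab had 107.8 FPKM and 216.6 RPKM, Vm34Ca had 115.2 FPKM and 113.2 RPKM, and Vm26Aa had 162.1 FPKM and 90.3 RPKM. Other members were lower. Vml had 7.317 FPKM and 24.46 RPKM, and Vm32E had 6.452 FPKM and 10.18 RPKM. Vm26Ac was listed at 0 FPKM and at 0.9548 RPKM. The chorion proteins, which are laid down later, were low in experiment 2. Cp15, Cp16, Cp18, Cp19, Cp7Fa, Cp7Fb and Cp7Fc had 0 to 1.24 FPKM and 0 to 0.0802 RPKM. Cp38 and Cp36 differed between the libraries. Cp38 had 14.5 FPKM (184 fragments) in experiment 1 and a single exon read in experiment 2, and Cp36 had 7.92 FPKM and no read. With no read, a count of up to 3 remains possible.

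Follicle cell genes stood at lower percentiles than germline identity genes and above meiosis genes. Of 27 follicle cell genes, 17 were at a level of at least 1 in both, none was in the top 10% of both, and the medians were 1.79 FPKM and 3.09 RPKM. Over all mRNA genes, 42.1% were at that level in both and 6.16% were in the top 10% of both. The median percentiles of the follicle cell list were 64.4 and 66.4, against 90.5 and 91.6 for germline identity and 52.5 and 56.3 for meiosis. These lists are not limited to genes of 1 cell type, so the percentiles are no measure of germline against soma. tj, a transcription factor of somatic gonad cells and the defining marker, had 6.54 FPKM and 16.05 RPKM. ed, an adhesion protein, had 5.19 FPKM and 16.1 RPKM, and the BMP receptor tkv had 4.67 FPKM and 7.70 RPKM. en, expressed in cap and terminal filament cells, had 0 FPKM and 2 reads.

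Among niche signalling genes, 12 of 21 were at a level of at least 1 in both, where 42.1% of all mRNA genes were. Stat92E, the transcription factor of the JAK-STAT pathway, had 6.33 FPKM and 16.6 RPKM, and put, a BMP type II receptor, had 4.41 FPKM and 8.75 RPKM. The ligands upd1 and hh had 0.175 and 0.130 FPKM and 0.376 and 0.209 RPKM, and upd2 was listed at 0 in both. The EGF receptor ligands spi and Krn were higher, at 4.05 and 2.03 FPKM and at 9.92 and 5.99 RPKM. Basement membrane genes (10 of 14) included the type IV collagens Col4a1, the highest in both libraries at 13.6 FPKM and 45.9 RPKM, and vkg, at 7.99 FPKM and 29.8 RPKM. trol, the perlecan gene, had 11.5 FPKM and 10.8 RPKM, and SPARC, a collagen-binding protein, had 10.7 FPKM and 7.36 RPKM.

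Muscle genes were the most abundant of the other tissues, with 15 of 22 at a level of at least 1 in both, where 42.1% of all mRNA genes were. The median percentile of the muscle list was 92.7 in experiment 1 and 61.9 in experiment 2. Act57B, a muscle actin, had 72.7 FPKM and 34.1 RPKM, the troponin T gene up had 50.4 FPKM and 23.5 RPKM, and Mhc, the muscle myosin, had 10.6 FPKM and 5.82 RPKM. The flight muscle actin Act88F was at 0.305 FPKM with no read in experiment 2.

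Lists of other tissues held few genes or none at a level of at least 1. No member of the fat body list (11 genes), the neuron list (10), the testis list (20), the trachea list (6) or the accessory gland list (10) was at a level of at least 1 in both libraries. Lsp2 of the fat body had 0.0668 FPKM and 0.00833 RPKM, elav of neurons had 0.515 FPKM and 0.499 RPKM, close to the median of all mRNA genes, and Mst87F of the testis had no read. Of 10 hemocyte genes 2 passed, crq, a scavenger receptor (4.0 FPKM and 8.34 RPKM), and srp, a GATA factor (1.39 FPKM and 1.34 RPKM), while Hml was at 0.0841 FPKM and 0.188 RPKM. Of 15 gut genes LManII, a lysosomal mannosidase, passed at 2.52 FPKM and 4.12 RPKM. The digestive protease alphaTry reached 10.2 FPKM in experiment 1 but 0.576 RPKM in experiment 2.

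The targets of the other antibodies were themselves expressed. Su(var)3-3, which encodes Lsd1, had 1.20 FPKM and 5.16 RPKM, and Bre1 had 2.97 FPKM and 17.6 RPKM. All 13 measured genes of these proteins and their partners were at a level of at least 1 in both, and the gene of heterochromatin protein 1a was highest at 20.1 FPKM and 40.6 RPKM.

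The 2 libraries differed along 2 lines, exon length and gene group. The median log2 ratio of FPKM in experiment 1 to RPKM in experiment 2 was -0.61 over the 5804 genes (SD 1.07 across genes). It was 0.48 for 87 genes with up to 500 bases of exon, -0.38 for 913 genes of 1501 to 2000 bases, and -1.20 for 851 genes over 5000 bases. Short genes thus stood higher in experiment 1.

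**Figure D3:**
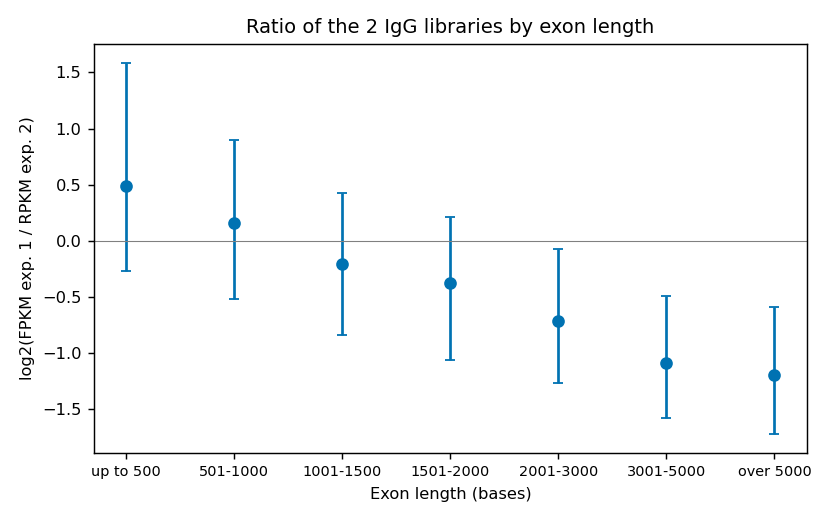
Points are medians and bars the quartiles of the log2 ratio of FPKM (experiment 1) to RPKM (experiment 2) over mRNA genes at a level of at least 1 in both, by exon length in bases. The median falls by class, 0.48 in the shortest and -1.20 in the longest.

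The ratio also differed by gene group within length classes. After the median of each gene's own length class was subtracted, 84 of 85 ribosomal protein genes were above 0, with a median of 2.68 on the log2 scale. So were 61 of 63 nuclear respiratory chain genes (median 1.6) and 15 of 15 muscle genes (1.81). In the other direction, 14 of 16 egg activation genes were below 0, with a median of -1.26, as were 18 of 24 replication genes (-0.35). Germline identity genes (0.12) and follicle genes (-0.03) had medians near 0. No test was made, since each experiment has 1 IgG library.

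Ribosomal protein genes had medians of the unadjusted ratio of 2.70 with IgG, 4.29 with Lsd1 and -0.94 with Bre1. Over all mRNA genes at a level of at least 1 in both libraries of the antibody, among the 5804, these medians were -0.61, 2.12 and -1.5. Nuclear respiratory chain genes also kept their side, above the median of all genes with each antibody. Their medians were 1.64 with IgG (63 of 63 above), 3.46 with Lsd1 (25 of 28) and -0.996 with Bre1 (33 of 47). Replication, egg activation and muscle genes did not keep their side. Replication genes had -1.12 with IgG (6 of 24 above), 3.05 with Lsd1 (6 of 6) and -2.03 with Bre1 (2 of 7). Egg activation genes had -1.97 with IgG, where 2 of 16 were above the median of all genes, 3.81 with Lsd1 (8 of 8 above) and -3.09 with Bre1 (1 of 10). Muscle genes had 1.09 with IgG (15 of 15 above), 1.35 with Lsd1 (4 of 10) and -0.30 with Bre1 (3 of 5). Each IgG library ranked genes most like one antibody library of its own experiment: the Spearman rho over the 5804 genes was 0.93 for IgG with Lsd1 in experiment 1 and 0.90 for IgG with Bre1 in experiment 2, both above the 0.67 of the IgG libraries with each other. The other antibody library of the same experiment was less like it, at 0.57 for IgG with Bre1 in experiment 1 and 0.56 for IgG with Lsd1 in experiment 2. Across experiments, IgG of experiment 1 had 0.67 with Bre1 and 0.43 with Lsd1 of experiment 2, and IgG of experiment 2 had 0.73 with Lsd1 and 0.58 with Bre1 of experiment 1. The 5804 genes were picked on the IgG libraries alone. Of them, 1308 were at a level of at least 1 in both Lsd1 libraries and 1876 in both Bre1 libraries. The rho values with these antibodies thus take in many genes at low levels there.

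Among single genes, the largest differences in place often fell on genes with few or no unique reads. The 6 mRNA genes with the largest percentile gain in experiment 1 were copies of His4, each at 33.5 to 33.7 FPKM with no read in experiment 2. The replication-dependent histone genes lie in near-identical repeats. All 111 were at a level of at least 1 in experiment 1 and 19 in experiment 2, where the 22 His4 copies had 35 reads in all. The opposite difference was led by CG33713, CG15535, Tim10, Cyp4g1, CG45084 and CG7384. CG45084 had 1.89 FPKM and 41.8 RPKM, but none of its 8730 reads was unique, and CG33713, Tim10 and Cyp4g1 had no unique read either. CG15535 rested on 486 unique reads (0.490 FPKM and 12.1 RPKM) and CG7384 on 1147 (1.15 FPKM and 10.5 RPKM).

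A larger share of mRNA genes was at a level of at least 1 on chromosome 4 and on the X than on the large autosomal arms. In experiment 1 the share was 59.5% on chromosome 4, 50.3% on the X and 42.2% to 44.1% on arms 2L, 2R, 3L and 3R. In experiment 2 it was 60.8%, 52.3% and 43.2% to 46.0%. The libraries thus gave the same order.

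Introns were measured in experiment 2 alone. They took 757936 of 9497498 gene reads outside ribosomal RNA, or 7.98% (counting interval 7.963 to 7.998, exact binomial at 95%). Without genes whose span holds another gene, which carried 57.3% of intron reads, the share was 4.64%. Intron reads were uneven among genes. Over 5397 mRNA genes with at least 200 gene reads the median intron share was 0.662%, and 3167 were under 1%, while 178 were at 50% or more. Among the 4460 of these genes that hold no other gene, the median was 0.467% and 67 were at 50% or more. The 10 genes with most intron reads held 10.8% of those of all mRNA genes, and 500 genes held 80.1%. Of mRNA intron reads, 90.5% were unique.

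CycG, a cyclin, had the most intron reads. It lies on the minus strand of 3R at 31596642 to 31612664 in dm6, and 12317 intron reads, all unique, fell on 9880 bases of intron, against 16774 exon reads. This is 1247 intron reads per kb. Parp, which makes poly(ADP-ribose) in chromatin, spans 3461351 to 3587054 on 3R and had 9204 intron reads against 1516 exon reads, an intron share of 85.9%. AGO3, a piRNA Argonaute at 23554593 to 23689640 on 3L, had 6984 against 1570, or 81.7%, over 131866 bases of intron. None of these 3 genes holds another annotated gene wholly within its span. An end of CycG is overlapped by Med (31611046 to 31615375 on 3R), which had 776 exon reads.

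The others of the 10 were MFS17, CG17514, pum, heph, CG17018, brat and apt, with 6257 to 8659 intron reads each. pum, a translational repressor of the germline, had 7167 intron and 7134 exon reads. brat, which works with it, had 6543 intron reads, of which 1693 were unique. apt, an RNA-binding and transcription factor, had 6257 intron reads against 2664 exon reads. heph had 6876 against 2988.

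Intron reads tracked the exon level of the gene. Among mRNA genes with at least 1000 bases of intron, the median density was 0 reads per kb of intron in 451 genes with no exon read, 0.904 in 670 genes of 0.1 to 1 RPKM, 9.39 in 1073 genes of 3 to 10 RPKM and 30.9 in 143 genes over 30 RPKM. Without genes whose span holds another gene these medians were 0, 0.789, 8.55 and 27.7. Across 2257 genes of at least 1 RPKM the Spearman rho of intron density with RPKM was 0.43, as a description across genes of 1 library. Pooled over genes, exon reads were denser than intron reads in every class above 0. There were 1.44 per kb of exon against 0.916 per kb of intron at up to 0.1 RPKM, and 285 against 21.6 at 3 to 10 RPKM.

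**Figure D4:**
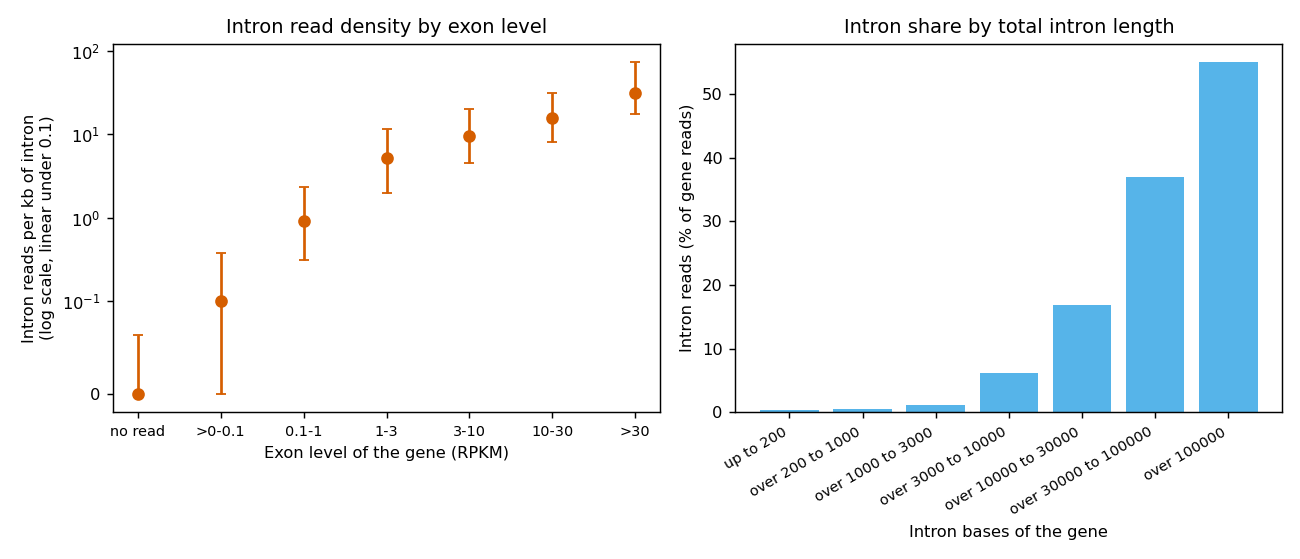
The left panel shows the median (points) and quartiles (bars) of intron reads per kb of intron over mRNA genes with at least 1000 bases of intron, by RPKM class, on a log scale that is linear under 0.1; the right panel shows intron reads as a percent of gene reads by total intron length. Density is 0 at the median of genes with no exon read and 30.9 in the highest class, and the share is 0.315% at up to 200 bases and 55.1% over 100000.

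Genes with much intron sequence took most of the intron reads. Genes with over 10000 and up to 30000, over 30000 and up to 100000, and over 100000 bases of intron held 25.9%, 39.3% and 16% of mRNA intron reads, and introns took 16.9%, 36.9% and 55.1% of the gene reads of these classes. In genes with over 200 and up to 1000 bases of intron they took 0.587%. At a fixed exon level of 3 to 10 RPKM the median density was 6.85 reads per kb in genes of over 200 and up to 1000 intron bases, 17.8 in those up to 30000 and 22.1 in those up to 100000. Without genes that hold another gene it was 6.83, 18.5 and 23.3. Below 3000 bases in all there was no such rise: the median was 7.75 up to 200 bases and 6.23 at over 1000 and up to 3000. Pooled over genes that hold no other gene, density was 24.0 up to 30000 and 21.9 up to 100000 bases. These classes are by the total intron bases of a gene, not by the length of single introns.

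Intron shares differed widely among gene groups. Introns took 0.528% of gene reads in the egg activation list and 0.0644% in the yolk list, against 7.73% over all mRNA genes. They took 30.1% in the follicle cell list and 18.6% in the piRNA list. The lists were not matched for intron length, and the share rises with it as given above. AGO3, qin and piwi held 95.3% of the intron reads of the piRNA list. In the cyclin list the share was 12.1%, with CycG, CycE and CycA holding 99.3% of the intron reads. spi and tkv had 52.6% and 46.4% of their reads in introns.

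Some very large genes had intron reads with almost no exon reads. Myo81F, an unconventional myosin gene of the pericentromeric region of 3R (567076 to 2532932), had 3183 intron reads over 1959338 bases and 5 exon reads. Ppr-Y on the Y chromosome had 2226 intron reads, of which 2181 were unique, and no exon read, and WDY and kl-3 had 227 each and no exon read. Over the 23 mRNA genes of the Y chromosome, 2884 intron reads stood beside 2 exon reads and no junction read, in a tissue dissected from females. In experiment 1, 1 gene of the Y, FDY, was at 8.58 FPKM (109 fragments), and it had no read in experiment 2. Experiment 1 holds no count of unique reads, so how many of these fragments also match other genes is not known.

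Among mRNA genes with over 10000 bases of intron, introns took 28.1% of gene reads in the IgG library of experiment 2 (interval 28.1 to 28.2). The Lsd1 library had 13.5% (interval 13.3 to 13.7), and Bre1 had 6.24% (interval 6.19 to 6.28). The 10 genes with most intron reads had an intron share of 57.6% with IgG (78434 intron and 57632 exon reads). The same genes had 81.6% with Lsd1 (6614 intron and 1490 exon reads) and 15.1% with Bre1 (5568 and 31300). Their share was thus highest with Lsd1, while that of all genes with over 10000 bases of intron was highest with IgG. These genes were picked on the IgG library, and each antibody has 1 library with intron counts, so no test was possible and the intervals cover counting error only.

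Reads across exon-exon junctions, a mark of spliced RNA, took 1267869 of 8642471 exon reads of mRNA genes, or 14.7% (interval 14.6 to 14.7). The share followed the number of annotated exons. Among 2244 genes with at least 1000 exon reads the median was 3.24% in 107 genes of 2 exons, 13.2% in 791 genes of 6 to 10 exons and 21.9% in 173 genes of over 20 exons. In 31 genes of 1 exon it was 0.

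**Figure D5:**
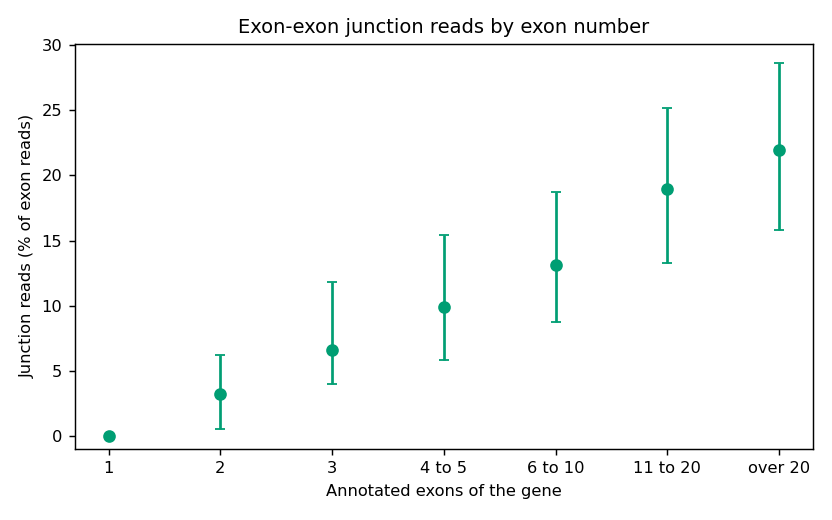
Points are medians and bars the quartiles of junction reads as a percent of exon reads over mRNA genes with at least 1000 exon reads in the IgG library of experiment 2, by number of annotated exons. The median is 0 at 1 exon and 21.9% over 20 exons.

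Over 2213 multi-exon genes the share correlated with exon boundaries per kb of exon at a Spearman rho of 0.79, as a description across genes. Short ribosomal protein genes were at the high end, with 84.7% for RpL39, 69.9% for RpL41 and 68.3% for RpS20. Among abundant genes with long exons, eEF1alpha1 had 1.5%, Hsc70-4 1.69% and Act5C, a cytoplasmic actin, 2.35%. Messages of the oocyte lay between, with 13.7% for osk and 18.5% for CycB. Genes rich in intron reads also had spliced reads: 17.8% of the exon reads of AGO3 and 19.9% of those of Parp crossed a junction, against 9.06% for CycG.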

How the data were processed

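The 2 IgG libraries were described, 1 per experiment. Members and gene lists were chosen with earlier results of these data known. For experiment 1 the authors deposited FPKM per transcript with confidence limits and a coverage signal, which was not used, per the file headers. Experiment 2 was deposited as read counts, RPKM and TPM per gene; the sources used here do not give its program. Build dm6 is given by the submitters' processing notes, with Cufflinks, SAMtools 0.1.18.0, TopHat and Bowtie2 2.0.6.0 as tools.

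FPKM was summed per gene. Of 17480 and 17398 genes, 17143 were joined, 17021 by identifier, 80 by symbol and 42 by synonym and locus; 17124 had an estimate in both. Fragments of experiment 1 were recovered from confidence limits (85.5% of 1769 low genes of 1 transcript came out whole within 0.05) or modelled. Recovery from limits was run on simulated data whose limits were made with the same formula. That run cannot show that the deposited limits follow the formula, and the modelled fragments were not simulated. A gene's intron length is its span less its exon length. RPKM of experiment 2 implies a larger denominator, of which gene reads were 44.1%; this scales all genes alike.

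With 1 group and 2 libraries no test was made, and no p-value is given. Correlations are across genes. Intervals are exact binomial, at 95%. Genes were named by rule: the 20 highest mRNA genes by the lower percentile of both libraries; per RNA class up to 4; per list the 4 highest and 2 lowest; the 10 with most intron reads; the 8 with the highest intron share; and 6 per direction with the largest percentile difference. Mitochondrial genes and defining markers were added, and some list members were named after their values were seen. Alternatives varied the minimum value, unit, reads, transcripts and genes counted. Tools were Python 3.11.15, pandas 2.3.3, numpy 2.4.6, scipy 1.17.1 and matplotlib 3.10.9.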

Additional observations from a re-analysis of the deposited data

How the results depend on the processing

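With a minimum of 5 in both libraries, 1805 genes were detected in place of 5880 (mRNA and other genes); minimums of 0.1, TPM and unique reads stayed within 1.5 times of that count, at 5631 to 7893. The Spearman rho over these genes, 0.671, was 0.879 with no filter, 0.566 at a minimum of 10 in both and 0.598 with the highest transcript in place of the sum, and kept its value to 2 decimals for protein-coding genes and for genes of at least 300 bases; with unique reads it was 0.675. The overlap of the highest genes, 58.4% at 500, was 53.0% at 100. The ribosomal RNA share of exon reads, 57.6%, was 58.5% in unique reads. Lists with a median percentile of at least 90 in both libraries numbered 7 of 31. Leaving out 1 experiment gave 9 (experiment 2 alone) and 13 (experiment 1 alone, which added the muscle, heat shock, mitochondrial ribosome, proteasome, respiratory chain and histone lists). The intron share, 7.98%, was 7.21% without the 10 genes with most intron reads, 3.55% with ribosomal RNA kept in, 7.76% for protein-coding genes and 4.64% without genes that hold another gene. Such genes held 57.3% of intron reads. Genes that overlap another gene only in part were not left out. The intron values without them, by exon level and intron length, were added after seeing the data. The junction share, 14.7%, was 15.2% for genes with junction reads and 14.9% without the 10 most abundant genes. Of the median percentiles of the 31 lists (the lower of both libraries), TPM moved none beyond the spread of the libraries and unique reads moved 5: heat shock, 61.7 in place of 84.0, and the fat body, testis, Y-linked and accessory gland lists. Leaving out experiment 1 moved 16 of them and leaving out experiment 2 moved 15. These counts were fixed by the rule and say nothing of how stable the lists are. Leaving out the lower library always moves a list beyond that spread, and leaving out the higher one never does. No paired analysis was possible because the results come from 1 group and from no test. Motif shares in promoters were not run, since no promoter sequence was used here. Experiment 1, at 1482001 fragments against 8739562 exon reads, limits what is said of low genes.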
